A study of Rattus norvegicus with 18 samples.

Results

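Ugt8, Fa2h, Cnp, Pllp, Prx, Cd9, Mpzl2, Fig4, Mtmr2 and Sh3tc2 are 10 genes for myelin lipids, myelin membrane proteins, membrane traffic and inherited neuropathy. They were picked by symbol from the deposited peak list, which gives symbols for 17003 of the 32883 gene identifiers of the RNA table. Genes without a listed peak thus could not be picked. All 97 peaks that this list of 215951 names to the 10 genes were taken. Primary rat Schwann cells at passage 3 were either treated with vitamin C (VitC) or were controls, and the labels state neither dose nor duration. In each group 3 libraries were made of RNA depleted of ribosomal RNA, 3 of DNA precipitated with an antibody to 5-hydroxymethylcytosine (hMeDIP) and 3 of genomic input. The labels do not tell whether the 3 samples of a group are separate cultures or animals, so the p-values measure the spread among the libraries at hand, which may be technical only.

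Schwann cells wrap axons of peripheral nerve in myelin, a membrane stack rich in galactolipids and held together by adhesion proteins. The enzymes and membrane proteins of myelin are made in the cell body and carried through endosomes, and loss of several of the carriers causes demyelinating neuropathy in people. Vitamin C is a cofactor of the TET enzymes, which oxidize methylated cytosine in DNA to 5-hydroxymethylcytosine.

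The libraries held 23381814 to 33173282 RNA reads in genes, 24020306 to 39899445 hMeDIP reads in peaks and 7201638 to 9521037 input reads in peaks. VitC RNA replicate 1 stood apart: its counts differed from those of the other treated libraries with a chi-square of 27.4 and 38.3 per degree of freedom, against 5.26 between those 2 libraries and 5.03 to 8.61 among controls. hMeDIP libraries 1 and 3 of each group differed by less than the sampling noise (0.896 in VitC and 0.963 in control), so they were counted as 1 sample, which leaves n = 2 per group. Only the fit of hMeDIP over input kept them apart. The other hMeDIP pairs of a group stood at 1.08 to 1.47. All input pairs stood at 0.978 to 0.988, also below the noise. Input libraries were still kept apart, because libraries were summed only where another pair of their group stood above 1. Peaks held 42.0% ± 1.63 of the counted hMeDIP reads in VitC and 32.8% ± 2.61 in control (SD, n = 3 libraries each; two-sided p = 0.1 by exact permutation, the lowest possible with 3 against 3). With libraries 1 and 3 as 1 the shares were 42.5% ± 1.96 in VitC and 32.3% ± 2.02 in control (SD, n = 2 each; exact p = 0.333, the smallest that 2 against 2 allows). Input gave 8.53% in VitC and 8.57% in control. hMeDIP levels below are counts per 1000000 reads in peaks (CPM) with TMM scaling, so they show shifts between peaks and not this total. Scaling by all counted reads moved the median log2 change of all gene sums by 0.42, to 0.43 with all counted reads, against 0.01 with reads in peaks.

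All 8 Schwann cell markers were measured, and their summed RNA level was 11430 to 12170 CPM in VitC and 11898 to 12169 CPM in control. Of the 7 fibroblast markers with an identifier, Dcn and Dpt were at 0 in every library. The summed level of these 7 was 9271 to 10782 CPM in VitC and 4513 to 4707 CPM in control, nearly all of it Col1a1, while Pdgfra, Gsn and Pi16 were lower. The 8 pericyte and smooth muscle markers summed to 194 to 221 CPM in VitC and 78.2 to 81.3 CPM in control, with Tagln, Des and Pdgfrb higher. The 6 perineurial markers, which include Itgb4, summed to 438 to 451 CPM in VitC and 208 to 235 CPM in control, with Krt19 at 0. Itgb4 and Ntn4 were higher, Itgb4 with 401 CPM in VitC and 102 CPM in control, while Sfrp4 and Slc2a1 were lower. Neuronal markers, mostly Gap43, summed to 801 to 901 CPM in VitC and 921 to 989 CPM in control. Of them Gap43 and Nefl were lower, Tubb3 higher and Nefm not called, while Rbfox3 and Snap25 had at most 3 reads per library. The 4 of 7 oligodendrocyte markers with an identifier, nearly all of it Sox8, summed to 84.6 to 87.5 CPM in VitC and 160.0 to 172 CPM in control. Mobp was at 0 and Opalin had at most 17 reads per library. Whether the Gap43 and Sox8 RNA came from neurons or oligodendrocytes was not tested. Endothelial, macrophage and epithelial markers with an identifier, 5 of 6, 4 of 7 and 4 of 6, were also summed. They reached at most 4.29, 1.73 and 10.3 CPM in VitC and 1.86, 1.83 and 13.2 CPM in control. Of these Tek was called higher (log2 change 1.15, adjusted p = 0.00177), Epcam lower and Cd68 not called. Markers without a single identifier under their symbol in the peak list, such as Pecam1, Itgam and Krt18, could not be counted, so the sums may miss such cells. The part of these levels in the results for the myelin genes was not tested. In bulk RNA, fewer cells of a type and less RNA per cell cannot be told apart.

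RNA of 5 of the 10 myelin genes changed with vitamin C. Ugt8, Prx and Cd9 rose and Cnp and Fig4 fell (edgeR quasi-likelihood test, adjusted p under 0.05), against a background of 40.1% of the 12925 genes tested, 19.1% higher and 21.0% lower. In 6 of the 10 the treated libraries did not overlap the controls, which held for 54.7% of all genes tested. All 10 passed the filter on low counts. The median log2 change was -0.05 over the 10 genes and -0.01 over all genes tested. The windows of 250 bases before the RefSeq start of these 5 genes (GRCr8, a build not matched to the peak list) are shown because their RNA changed. CG dinucleotides, the usual site of cytosine methylation and of its oxidized form, are in capitals, 5′ to 3′ on the gene's strand.

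Ugt8: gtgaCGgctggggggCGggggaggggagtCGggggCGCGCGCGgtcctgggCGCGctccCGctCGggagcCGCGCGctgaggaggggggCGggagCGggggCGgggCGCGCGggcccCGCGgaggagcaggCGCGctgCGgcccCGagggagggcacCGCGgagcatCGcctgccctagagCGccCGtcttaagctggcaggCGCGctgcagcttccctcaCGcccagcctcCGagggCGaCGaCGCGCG
Cnp: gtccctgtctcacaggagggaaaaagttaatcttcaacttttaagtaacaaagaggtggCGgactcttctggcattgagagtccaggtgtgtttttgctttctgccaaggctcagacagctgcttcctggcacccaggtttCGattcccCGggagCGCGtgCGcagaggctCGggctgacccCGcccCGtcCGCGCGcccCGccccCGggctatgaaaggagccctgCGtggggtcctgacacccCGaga
Prx: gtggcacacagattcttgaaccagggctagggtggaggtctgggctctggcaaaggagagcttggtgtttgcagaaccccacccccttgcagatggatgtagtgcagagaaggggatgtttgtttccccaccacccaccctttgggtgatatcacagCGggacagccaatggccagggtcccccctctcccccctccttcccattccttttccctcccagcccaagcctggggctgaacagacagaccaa
Cd9: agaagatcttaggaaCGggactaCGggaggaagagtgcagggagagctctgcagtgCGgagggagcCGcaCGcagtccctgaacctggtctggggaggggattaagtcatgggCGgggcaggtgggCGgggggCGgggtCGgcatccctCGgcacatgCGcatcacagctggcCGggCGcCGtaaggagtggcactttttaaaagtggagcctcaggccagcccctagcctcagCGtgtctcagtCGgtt
Fig4: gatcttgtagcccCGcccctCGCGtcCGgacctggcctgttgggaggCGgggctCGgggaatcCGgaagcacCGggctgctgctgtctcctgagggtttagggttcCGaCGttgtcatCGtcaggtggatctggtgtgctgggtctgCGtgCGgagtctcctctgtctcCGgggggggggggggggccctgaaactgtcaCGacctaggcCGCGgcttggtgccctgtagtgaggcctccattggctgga

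The windows lie at chr2:217007168-217007417 on the minus strand for Ugt8, chr10:86011254-86011503 on the plus strand for Cnp, chr1:91914171-91914420 on the plus strand for Prx, chr4:159975359-159975608 on the minus strand for Cd9 and chr20:46306478-46306727 on the minus strand for Fig4. RefSeq windows were found for 9 of the 10 genes, Mpzl2 being the one without. The Ugt8 window held 40 CG dinucleotides, against a median of 5 over the 33469 windows of this length. Cnp and Cd9 held 16 each and Fig4 17. The Prx window held 1 CG. So the genes whose RNA rose include the most and the least CG-rich window of the 9. The motif ACAAAG, a core of SOX factor sites, was looked for on both strands and was found in the Cnp window only, and it occurs in 16.3% of all windows. The motif GCGNGGGCG, of EGR factors, was found in the Ugt8 window only and occurs in 4.29% of all windows. A match is a description of these letters and not a bound site.

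Among the lipid enzymes, RNA rose for Ugt8 and gave no call for Fa2h. Ugt8 makes galactosylceramide, the main galactolipid of myelin. Its RNA was 79.6, 78.5 and 77.9 CPM in VitC and 61.2, 54.4 and 51.1 CPM in control. The treated libraries lay close together and above every control, with a log2 change of 0.50 ± 0.07 (SE, adjusted p = 0.000941), a 1.41-fold level. Fa2h, which hydroxylates the fatty acids of these lipids, was detected with 36 to 41 reads in VitC libraries and 37 to 53 in control libraries. Its level was 1.42, 1.37 and 1.44 CPM in VitC and 1.35, 1.56 and 1.59 CPM in control, so the groups overlapped (log2 change -0.09 ± 0.17, adjusted p = 0.706).

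Among the membrane proteins, Cd9 and Cnp moved in opposite directions. Cd9, a tetraspanin that organizes integrins in the membrane, had 226, 246 and 243 CPM in VitC and 158, 146 and 143 CPM in control. This was the largest RNA change of the 10 genes, 0.68 ± 0.06 on the log2 scale (adjusted p = 6.59e-05). Cnp, the cyclic nucleotide phosphodiesterase of noncompact myelin, fell to 1731, 1873 and 1902 CPM in VitC, against 2313, 2402 and 2553 CPM in control. The groups did not overlap, and the level was 0.758-fold that of control (log2 change -0.40 ± 0.06, adjusted p = 0.00139). Pllp, the MARVEL protein plasmolipin of the myelin sheath, had 4.92, 8.27 and 6.82 CPM in VitC and 5.85, 7.32 and 7.99 CPM in control. The spread inside each group was wider than the difference (-0.08 ± 0.19, adjusted p = 0.778), and the lowest value was that of VitC replicate 1. Mpzl2, an adhesion protein with an immunoglobulin fold like that of myelin protein zero, had only 9 to 15 reads per library (log2 change -0.02 ± 0.30), and a difference within that error was not detectable at this depth.

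Prx encodes periaxin, a scaffold that ties the Schwann cell membrane to dystroglycan, and its loss causes a demyelinating neuropathy. Its RNA was 16.3, 16.2 and 16.8 CPM in VitC and 11.1, 10.7 and 12.4 CPM in control. Every treated library lay above every control (log2 change 0.53 ± 0.08, adjusted p = 0.00122).

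The 3 traffic genes moved less than Ugt8, Cd9, Cnp and Prx, and more than Fa2h, Pllp and Mpzl2. Fig4, a phosphoinositide phosphatase of endosomes, had 70.1, 67.3 and 65.0 CPM in VitC and 80.2, 82.3 and 82.9 CPM in control (log2 change -0.28 ± 0.06, adjusted p = 0.00467). Mtmr2, the myotubularin phosphatase whose loss causes a neuropathy with folded myelin, had 223, 202 and 203 CPM in VitC and 245, 237 and 225 CPM in control. The groups did not overlap, but the change of -0.17 ± 0.06 missed the threshold (adjusted p = 0.0587). It was called lower without VitC replicate 1 (-0.22, adjusted p = 0.00418), with library-size scaling (-0.23, adjusted p = 0.0143) and with a replicate block (adjusted p = 0.0315). The 5 calls above held without VitC replicate 1. Sh3tc2, an adaptor of RAB11 recycling endosomes, had 75.5, 75.7 and 70.9 CPM in VitC and 65.7, 68.2 and 71.1 CPM in control, which overlapped (0.12 ± 0.06, adjusted p = 0.152). With library sizes of all counted reads the change of Cnp stood at -0.41 with an adjusted p of 0.0516 and that of Fig4 at -0.30 with 0.143, so both calls were lost. Over all genes this setting called 1639 higher and 1115 lower, and 3 and 0 of the 10.

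**Figure D1:**
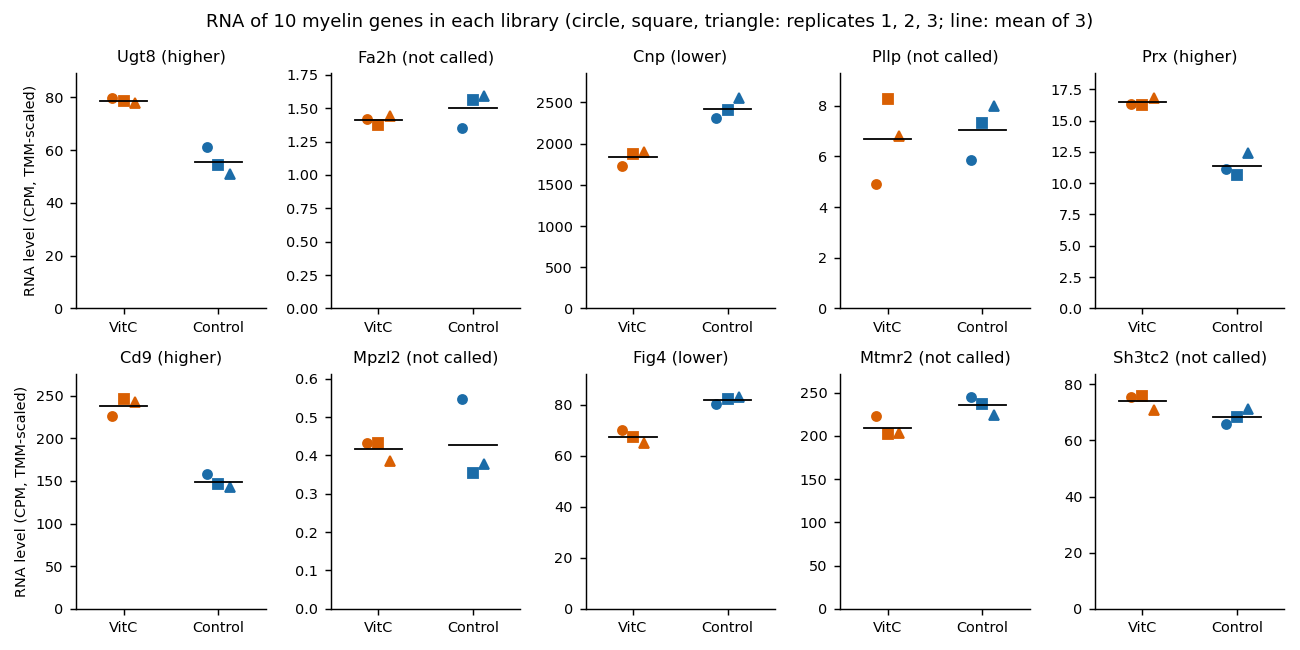
RNA level of each of the 10 genes in TMM-scaled CPM in the VitC libraries on the left and the control libraries on the right; symbols are replicates 1 to 3, lines the mean of 3, and each panel has its own axis from 0. Ugt8, Prx and Cd9 were higher and Cnp and Fig4 lower in all treated libraries; Mtmr2 did not overlap but missed the threshold.

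The other genes of each pathway were counted apart from the 10 themselves. Over all genes tested in RNA 19.1% were higher and 21.0% lower. Of 12 other genes of the Prx, dystroglycan and cytoskeleton list 7 rose and 0 fell, with a median log2 change of 0.41. The dystroglycan gene Dag1 gave no call (-0.09 ± 0.05, adjusted p = 0.196), and Drp2 had at most 2 reads per library and was not tested. The largest changes were those of Itgb4, an integrin (1.98 ± 0.05, adjusted p = 3.04e-07), the dystrophin gene Dmd (1.27 ± 0.16, adjusted p = 0.000362) and its relative Utrn (0.85 ± 0.12, adjusted p = 0.000662). Of 13 other genes of galactolipid and sphingolipid synthesis 3 rose and 3 fell, with a median of -0.07. The sphingomyelin synthase Sgms1 rose (0.73 ± 0.13, adjusted p = 0.00252), as did the ceramide synthase Cers6 (1.28 ± 0.21, adjusted p = 0.00176), with a wide spread of 54.5 ± 19.2 CPM in VitC and 22.4 ± 1.55 CPM in control (SD, n = 3 each). Cers2, which makes ceramides with very long chains, fell to 118 ± 7.34 CPM in VitC, against 188 ± 6.21 CPM in control.

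Of the 10 genes of sphingolipid and galactolipid breakdown 1 rose and 4 fell, with a median of -0.05. Galc, the lysosomal enzyme that splits the product of Ugt8, fell by 0.39 on the log2 scale (adjusted p = 0.00446), and Hexa, a further lysosomal hydrolase, fell by 0.41. Of 22 other genes of phosphoinositide turnover and endosomal traffic 3 rose and 4 fell, with a median of -0.03. Pikfyve, the lipid kinase that works in 1 complex with Fig4, fell by 0.45 (adjusted p = 0.000721), as did the RAB11 effector Rab11fip1, by 0.49 (adjusted p = 0.0104). Litaf, an endosomal neuropathy gene, rose (0.33 ± 0.06, adjusted p = 0.00228). With all counted reads as library size the calls of Galc, Hexa, Rab11fip1 and Litaf were lost and their directions stayed.

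Of 15 other genes of demyelinating neuropathy 6 rose and 4 fell, with a median of 0.11. Egr2, a transcription factor of myelination, had 6.76 ± 0.76 CPM in VitC and 2.09 ± 0.375 CPM in control (log2 change 1.69 ± 0.16, adjusted p = 7.57e-05). Ndrg1, a Schwann cell protein of the cytoplasm, fell by 0.93 and Nefl, a neurofilament, fell by 1.18. Of 12 other tetraspanins and partners 4 rose and 5 fell (median -0.12). Tspan9 rose (0.83 ± 0.08), while Cd63 fell by 0.69 and the integrin Itga3 by 0.66, the opposite direction to Cd9. Of 12 other MARVEL and tetraspan proteins 2 rose and 6 fell (median -0.24). Emp2 rose (1.02 ± 0.07) and Cmtm8 fell by 0.70. Mal, the nearest in kind to Pllp, fell to 0.0858 ± 0.02 CPM in VitC, against 0.82 ± 0.232 CPM in control. Of 8 other P0-like and immunoglobulin adhesion genes 3 rose and 0 fell (median 0.09), led by L1cam (1.32 ± 0.06), Cadm4 (0.61 ± 0.07) and Mpzl1 (0.57 ± 0.07), the last a close relative of Mpzl2.

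The 97 hMeDIP peaks of the 10 genes went both ways. With vitamin C 47 peaks rose, 30 fell and 20 gave no call, against a background of 36.9% higher and 36.3% lower among all 215951 peaks. DESeq2 called 30 higher and 26 lower, against 20.2% higher and 31.8% lower among all peaks. In 78 of the 97 the libraries of the groups did not overlap, against 76.9% of all peaks. The median log2 change was 0.19 over the 97 peaks and 0.05 over all peaks. The deposited list passes over the chromosomes in a first run of 68431 peaks and then in a second run of 147520, and neither the labels nor the list say what sets the runs apart. In the first run 2.89% of all peaks were higher and 87.1% lower, and in the second 52.6% were higher and 12.8% lower. Of the 25 peaks of the myelin genes in the first run 2 rose and 19 fell, and of the 72 in the second run 45 rose and 11 fell. The direction of a peak of these genes moved with its run, and the part of the run in it was not tested. Scaled by all counted reads 67 of the 97 peaks rose and 16 fell, against 60.1% higher and 23.6% lower among all peaks. This scaling turned the sign of 9 called peaks, each lower when scaled by reads in peaks: those of Cd9 at 20912 bases and 2463 bases before the start, Pllp at 4866, Prx at 4064, Sh3tc2 at 37864 and 55385, and Fig4 at 36872, 77177 and 107030 bases. Of these the Cd9 peak at 20912 bases was then called higher and the other 8 were not called.

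In input DNA 0 of the 97 peaks were called by edgeR (background 0.00% of 215759) and 1 had an unadjusted p under 0.05, against 10477 (4.86%) of all peaks. The fit of hMeDIP over input kept the 3 hMeDIP libraries of a group apart. It thus counts libraries 1 and 3 as separate samples, though they differed by less than sampling noise, and its p-values may be too small. In this fit 31 of the 97 rose and 19 fell, against 21.9% higher and 28.4% lower over all peaks. The hMeDIP level of the 97 peaks was 0.931 to 10.97 times input in VitC, with a median of 5.21, and 1.45 to 11.2 times input in control, with a median of 3.30. Fig4 had the most peaks, 24, then Sh3tc2 with 15, Mtmr2 with 12, Cd9 with 10, Ugt8 and Fa2h with 9 each, Prx with 7, Pllp with 5, Mpzl2 with 4 and Cnp with 2. The median gene with a peak had 3. Within gene bodies 39 of 84 peaks rose and 28 fell, against 44.5% higher and 28.4% lower among all gene body peaks.

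**Figure D2:**
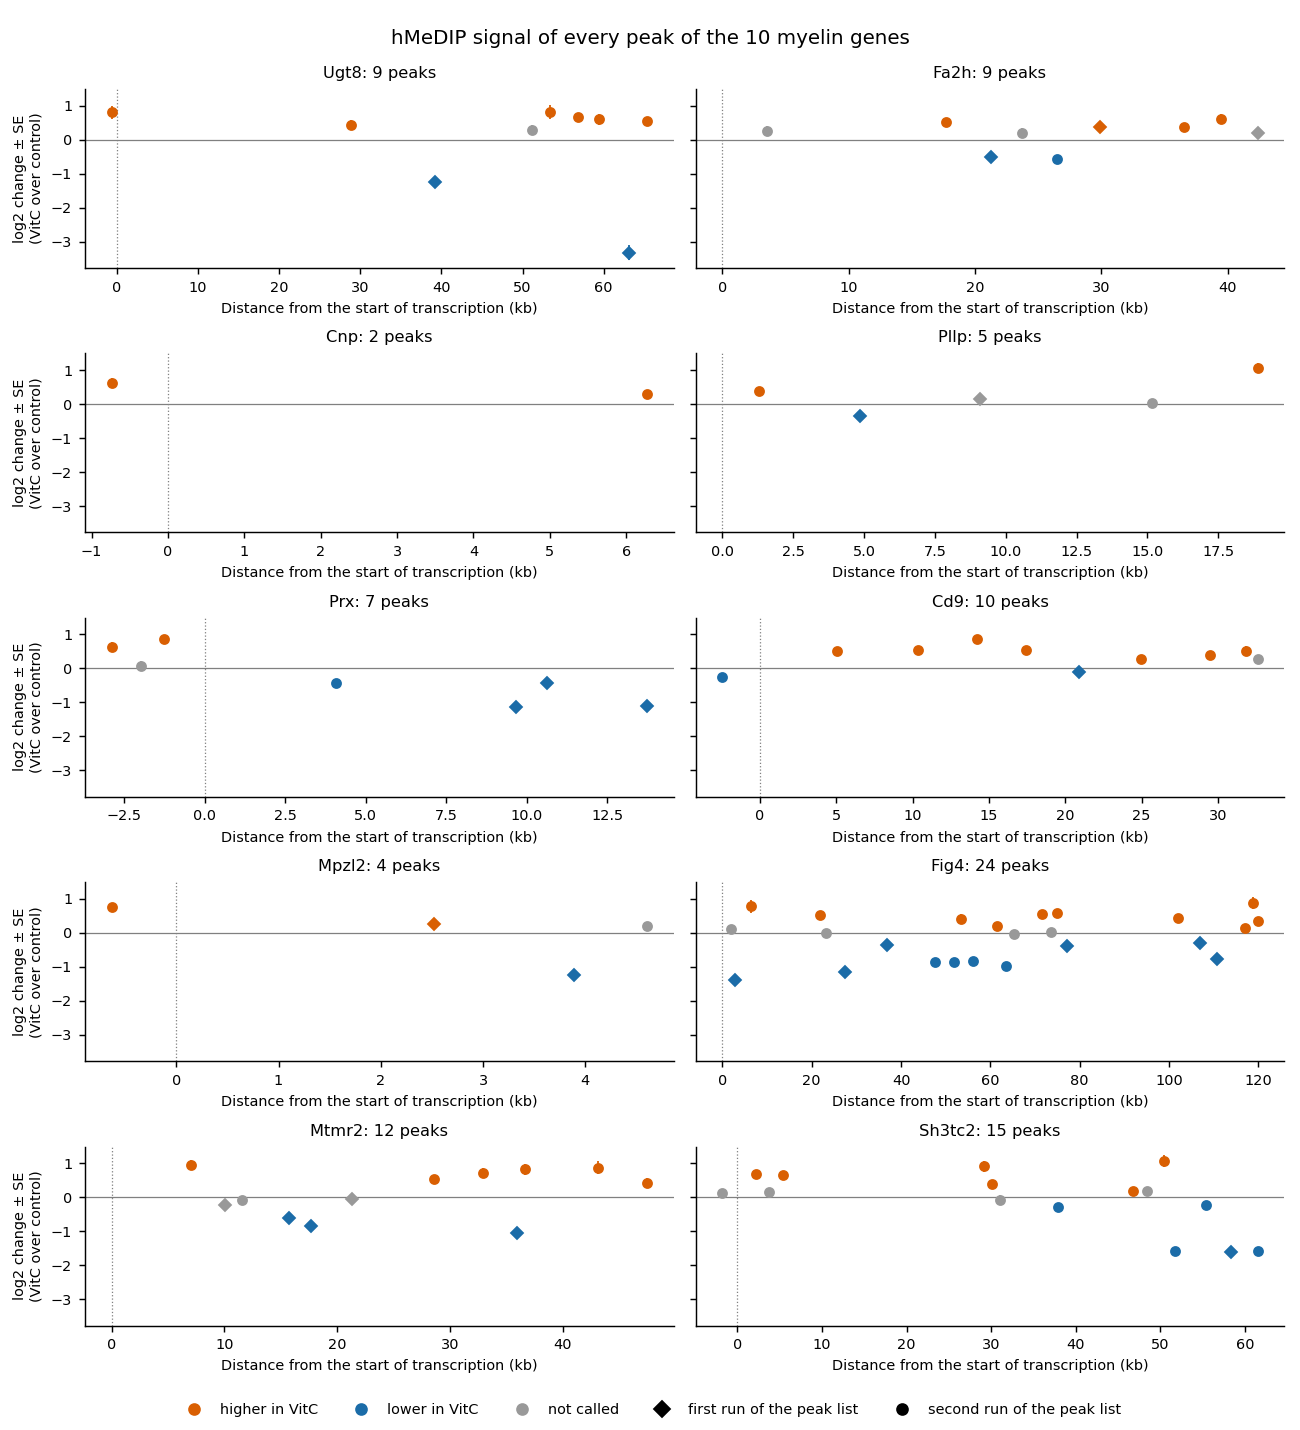
log2 change of hMeDIP signal (VitC over control, with the SE of the fit) of each of the 97 peaks against its distance from the start of transcription in kb; orange peaks were higher, blue lower and grey not called, diamonds lie in the first run of the deposited list and circles in the second. Peaks of Prx before the start were higher or not called and those in the gene lower, the last peaks of Sh3tc2 were lower, and 19 of the 25 diamonds were lower.

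Near the starts more peaks rose than fell. Of 13 peaks in the list's promoter classes 8 rose and 2 fell, against 42.7% higher and 30.2% lower among 17444 peaks of these classes. Of the 13 peaks 11 lie in the second run, where rises were the more frequent. Over input 5 of the 13 were called higher and 1 lower. The 3 peaks in the class nearest to a start belong to Cnp, Ugt8 and Mpzl2, and all 3 rose. At Cnp the peak at 10:88489801-88490320, 738 bases before the start, had 3.48, 3.31 and 4.07 CPM in VitC and 2.63, 2.38 and 2.11 CPM in control (0.63 ± 0.14, adjusted p = 7.0e-05). Its other peak, at the 3′ side, rose too (0.29 ± 0.07), so hMeDIP signal at Cnp was higher where its RNA was lower. At Ugt8 the peak at 2:229719143-229719515, 670 bases before the start, had 1.70, 1.82 and 1.87 CPM in VitC and 0.978, 1.04 and 1.101 CPM in control (0.80 ± 0.19, adjusted p = 0.000256). At Mpzl2 the peak 632 bases before the start had 5.12, 5.30 and 5.33 CPM in VitC and 2.90, 2.99 and 3.49 CPM in control (0.75 ± 0.11). In each of these 3 peaks every treated library lay above every control. Over input the Cnp and Mpzl2 peaks were called higher and the Ugt8 peak was not. With 1 library left out at a time, the over-input call was lost 5 times at Cnp and 3 times at Mpzl2.

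At Ugt8 a single peak deep in the gene went far the other way. The peak at 2:229655351-229655717, 63125 bases from the start, had 0.362, 0.224 and 0.438 CPM in VitC and 3.61, 3.59 and 3.21 CPM in control. This was the largest change among the 97 peaks, -3.32 ± 0.21 on the log2 scale (adjusted p = 1.46e-17), with 9 to 18 reads left in the treated libraries. Relative to input it stood at 0.931 in VitC and 5.59 in control, so in treated cells the signal was near that of unprecipitated DNA. Input at this peak was 1.93 CPM in VitC and 2.27 CPM in control. A peak at 39188 bases also fell (-1.24 ± 0.18), both of these lying in the first run, while 6 of the other 7 peaks of Ugt8 rose by 0.43 to 0.81.

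At Prx the peaks before the start and those within the gene went different ways. The peak at 1:84302683-84303225, 1274 bases before it, had 5.42, 5.92 and 5.23 CPM in VitC and 2.63, 3.12 and 3.36 CPM in control (0.87 ± 0.11, adjusted p = 6.64e-09), and the one 2898 bases before it rose too (0.64 ± 0.15). The 4 peaks within the gene all fell. The strongest, at 1:84317578-84318344, 13733 bases in, had 5.67, 5.00 and 4.99 CPM in VitC and 11.4, 12.3 and 10.5 CPM in control (-1.12 ± 0.08, adjusted p = 2.57e-15). The peak at 9675 bases fell by 1.13, and those at 4064 and 10621 bases by 0.44 each. The peak 1974 bases before the start gave no call (0.08 ± 0.14). Those at 9675, 10621 and 13733 bases lie in the first run and the other peaks of Prx in the second, and the part of the run was not tested. Over input the peaks at 4064 and 10621 bases were not called. With all counted reads as library size only the peaks at 9675 and 13733 bases stayed called lower.

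Cd9 carried a broad domain of signal. Its 9 peaks after the start covered 25.5 kb, beside a listed transcript of 33.0 kb, and 7 of them rose. The peak at 4:157994104-157997805, 14212 bases from the start, had 22.1, 24.6 and 23.4 CPM in VitC and 13.3, 12.3 and 13.6 CPM in control (0.86 ± 0.06, adjusted p = 1.33e-15). Its neighbours at 5055, 10369 and 17443 bases rose by 0.53, 0.55 and 0.55. The 2 calls in the other direction were small. The peak at 20912 bases, the only one of the first run, was at -0.11 ± 0.05 and at 0.35 when scaled by all counted reads. The peak 2463 bases before the start had 5.31, 5.45 and 5.99 CPM in VitC and 6.47, 7.88 and 5.81 CPM in control, which overlapped (-0.24 ± 0.10, adjusted p = 0.0248). Its change was 0.17 when scaled by all counted reads, and it was no longer called when VitC replicate 1, VitC replicate 2, control replicate 1 or control replicate 2 was left out (-0.21, -0.23, -0.23 and -0.14).

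In Sh3tc2 the strongest losses lay toward the 3′ end. The peak at 18:57337555-57338437, 51674 bases from the start, had 4.45, 4.43 and 4.31 CPM in VitC and 13.1, 13.2 and 13.1 CPM in control (-1.57 ± 0.08, adjusted p = 2.44e-20), the smallest p of the 97 peaks. Relative to input it was at 4.97 in VitC and 11.2 in control. The peaks at 58387 and 61498 bases fell by 1.60 and 1.58, and the one at 55385 bases by 0.23. Upstream of them the peak at 37864 bases also fell, by 0.29, while the peaks at 2143, 5417, 29104 and 50402 bases rose by 0.68, 0.66, 0.91 and 1.07. The last of these is the peak next to the one that fell with the smallest p. The peak nearest the start, 1792 bases before it, gave no call (0.12 ± 0.09).

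Fig4 had 10 peaks that rose and 10 that fell. The peak at 20:45980601-45982014, 63431 bases from the start, had 6.93, 7.36 and 7.25 CPM in VitC and 13.9, 15.3 and 14.0 CPM in control (-0.99 ± 0.07, adjusted p = 1.52e-15). It closes a stretch in which the peaks at 47559, 51776 and 56141 bases fell by 0.86, 0.85 and 0.84, while those at 53343 and 61408 bases rose by 0.41 and 0.22. These 6 peaks lie in the second run. The peak nearest the start, at 2011 bases, gave no call (0.11 ± 0.13), and the next, at 2849 bases, fell by 1.39. From 101949 bases on 4 peaks rose and 2 fell.

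At Mtmr2 the peak at 8:12291043-12292169, 7078 bases from the start, had 4.67, 4.88 and 4.75 CPM in VitC and 2.48, 2.30 and 2.60 CPM in control (0.96 ± 0.12, adjusted p = 4.71e-09). All 6 peaks of Mtmr2 that rose lie in the second run, and all 3 that fell in the first. In Fa2h the peak at 26472 bases had 6.73, 6.64 and 7.25 CPM in VitC and 11.1, 9.92 and 10.1 CPM in control (-0.58 ± 0.08), and the one at 21273 bases fell by 0.52, while 4 others rose by 0.37 to 0.60. Scaled by all counted reads, neither loss was called. The Fa2h peak nearest the start, at 3533 bases, gave no call (0.27 ± 0.13).

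Pllp had its strongest change at the far end of the gene. The peak at 18888 bases had 3.25, 3.78 and 3.34 CPM in VitC and 1.504, 1.86 and 1.71 CPM in control (1.05 ± 0.15, adjusted p = 3.31e-08), and that at 1309 bases rose by 0.39. Over input both of these peaks were called higher. With 1 library left out at a time, that call was lost 3 times at 18888 bases and 1 time at 1309 bases. The peak at 4866 bases fell by 0.36. In Mpzl2 the peak at 3891 bases had 1.67, 2.06 and 2.07 CPM in VitC and 4.29, 6.19 and 3.49 CPM in control (-1.23 ± 0.15), with a wider spread among the controls.

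**Figure D3:**
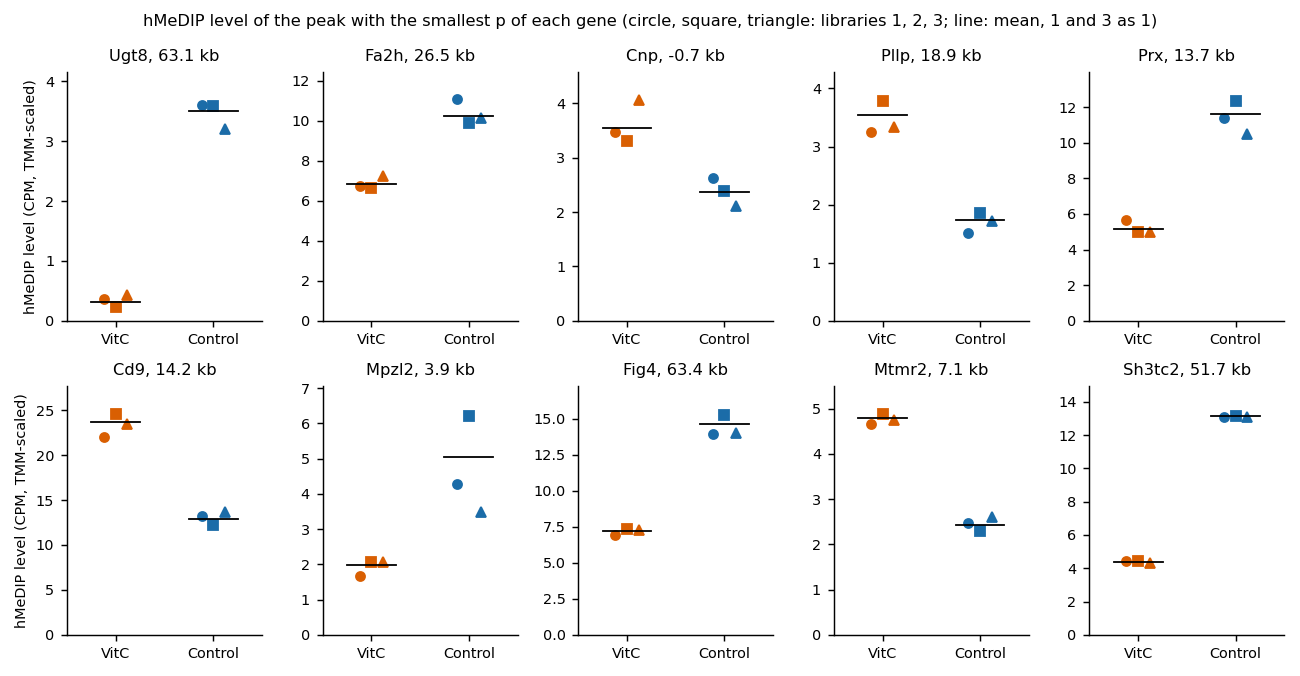
hMeDIP level in CPM of reads in peaks (TMM-scaled) of the peak with the smallest p of each gene, VitC libraries on the left and control libraries on the right; symbols are libraries 1 to 3 and lines the mean with libraries 1 and 3 counted as 1, on axes from 0. No peak's groups overlap, and the treated libraries are lower at Ugt8, Fa2h, Prx, Mpzl2, Fig4 and Sh3tc2 and higher at Cnp, Pllp, Cd9 and Mtmr2.

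Summed over all its peaks, hMeDIP signal rose at 4 genes and fell at 3, against 37.3% higher and 37.3% lower among 17003 genes with a peak. Cd9 summed to 354 ± 6.96 CPM in VitC and 269 ± 5.13 CPM in control (SD, n = 2 each; log2 change 0.38 ± 0.03, adjusted p = 1.55e-14). Cnp summed to 30.03 ± 0.959 CPM in VitC and 23.0 ± 0.0626 CPM in control (0.38 ± 0.07, adjusted p = 2.68e-06). Ugt8 (0.18 ± 0.06) and Mtmr2 (0.12 ± 0.04) rose less, and both calls were lost in DESeq2 and with library-size scaling. The call of Mtmr2 was lost as well without VitC replicate 2 (0.12) or VitC replicate 3 (0.09).

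Prx summed to 60.1 ± 0.931 CPM in VitC and 75.9 ± 0.366 CPM in control (-0.34 ± 0.04, adjusted p = 1.04e-08). Sh3tc2 and Fig4 fell by 0.18 and 0.11. Scaled by all counted reads these 3 sums were above control, at 0.09 for Prx (adjusted p = 0.464), 0.25 for Sh3tc2 and 0.32 for Fig4, and 9 of the 10 genes were then called higher, against 64.9% higher and 17.5% lower among all genes. Fa2h, Pllp and Mpzl2 gave no call, at 0.06, 0.07 and 0.11, when scaled by reads in peaks.

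Set beside the RNA, the sums did not follow 1 pattern. Cd9 and Ugt8 were higher in both RNA and hMeDIP sum, and Fig4 was lower in both. At Cnp the RNA was lower and the sum higher, and at Prx the RNA was higher and the sum lower. These are 3 of 5 in the same direction, and over all genes called in both measures 1808 of 3212 (56.3%) were. With all counted reads as library size of the hMeDIP sums, 2 of the 4 members called in both had the same direction, Cd9 and Ugt8, against 2042 of 3670 (55.6%) over all genes. At Sh3tc2 and Mtmr2 the sum changed while the RNA gave no call, which does not show that RNA stayed level.

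**Figure D4:**
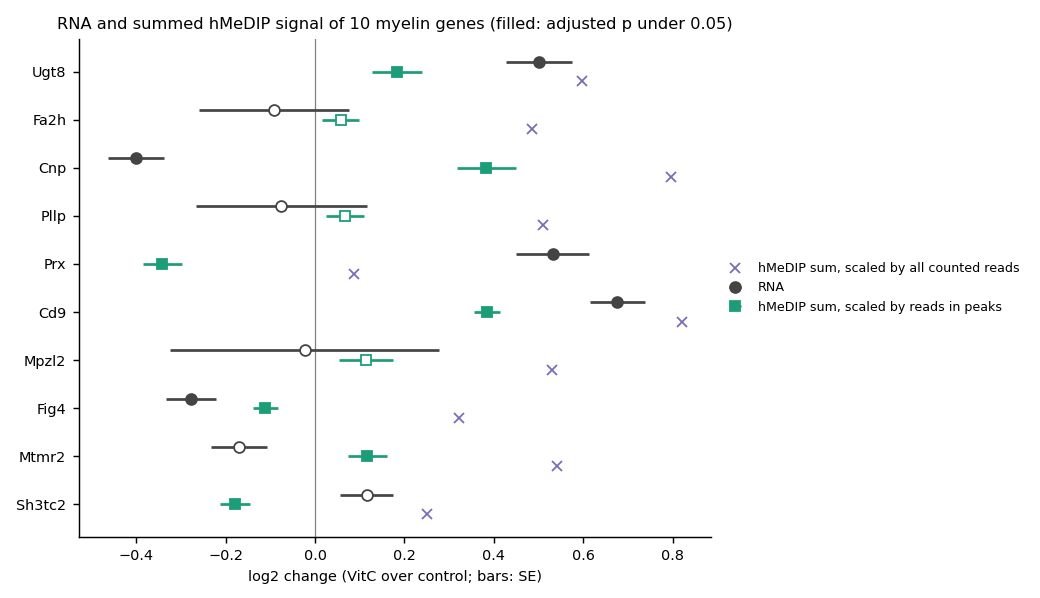
log2 change (VitC over control, with the SE of the fit) of RNA (circles) and of the hMeDIP signal summed over all peaks of a gene (squares, scaled by reads in peaks; crosses, scaled by all counted reads) for the 10 genes; filled symbols have an adjusted p under 0.05. Circle and square lie on opposite sides of 0 at 7 genes, of which Cnp and Prx have both symbols filled, and the crosses lie right of 0 for all 10.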

How the data were processed

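The deposited tables hold the authors' raw read counts, per gene in RNA and per peak in hMeDIP and input, beside a peak list with position, gene, region class and distance from the start. Per the submitters' processing notes, BWA, STAR, HTSeq, Trim Galore and CASAVA 1.4 were used. Genome build, peak caller, merging rule and strand setting are stated by neither labels nor file headers, so positions are as the peak list prints them, and reads of overlapping or antisense genes cannot be told apart.

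The counts were tested with edgeR 4.0.16 (R 4.3.3): TMM factors, default filter, quasi-likelihood F test, treatment as the only term, Benjamini-Hochberg adjustment at 0.05 over all genes or peaks. RNA, hMeDIP, input and gene sums of hMeDIP counts were fitted apart, and a joint fit with a term per sample tested hMeDIP over input. Entries naming no gene (42.3% to 53.9% of counted RNA reads) were left out. Outside the joint fit, which kept all libraries apart, hMeDIP libraries 1 and 3 of a group were summed, and their SD is over 2 values. Each step was tested on simulated counts. Alternatives were DESeq2 1.42.0, other scalings, no filter, a replicate block and leaving out each library. Reads carry no molecular identifiers here, so counting error is a lower bound.

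The 10 genes, the pathway lists and the marker lists were chosen with earlier results of these data known. Text names all 10 genes, each one's hMeDIP peak of smallest p and peak nearest the start, and up to 3 called genes with the largest change per pathway list, 1 of which is not reported here; further peaks were named after their values were seen. Treated and control samples of the same number were not paired in the main fits.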

Additional observations from a re-analysis of the deposited data

How the results depend on the processing

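Scaling by all counted reads, those outside genes or peaks included, moved most counts. In RNA it called 1639 genes higher and 1115 lower, and 0 of the 10 myelin genes lower. In hMeDIP it called 129858 peaks higher and 51017 lower, with 16 peaks of the 10 genes lower, and over input 101863 higher and 35185 lower, with 61 peaks of the 10 genes higher. Of gene sums it called 11042 higher and 2971 lower, with 9 and 0 of the 10 genes. Signs turned at the sums of Fig4 (0.32), Prx (0.087) and Sh3tc2 (0.25) and at 9 called peaks of the 10 genes, among them the Cd9 peaks before the start (0.17) and at 20912 bases (0.35), the Pllp peak at 4866 (0.10) and the Sh3tc2 peak at 55385 bases (0.21). DESeq2 called 43730 hMeDIP peaks higher, with 30 of the 10 genes' peaks, and it and library-size scaling each called 2 of the 10 sums higher. For these the cause was not tested.

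Leaving out 1 library at a time called 1710 to 2718 genes higher and 1784 to 2916 lower in RNA, with 3 of the 10 higher each time and 2 to 3 lower. The lowest count of lower genes, 1784, came without control replicate 2. For hMeDIP peaks of the 10 genes the range was 42 to 47 higher and 27 to 29 lower, over input 22 to 30 higher and 18 to 20 lower, and for the sums 3 to 5 higher and 3 lower. Over all alternatives, for the RNA and sums of the 10 genes and the peaks chosen by the naming rule, 876 of 934 repeats kept direction and call, 34 lost the call, 20 gained one and 4 turned.

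Whether the replicate numbers pair treated with control samples was not settled. Deviations of same-numbered RNA libraries correlated at 0.31, 0.22 and 0.04, and of different-numbered ones at -0.32, -0.06, -0.23, 0.05, -0.27 and 0.29. For hMeDIP the same-numbered values were -0.03, -0.21 and -0.11, and the different-numbered ones 0.11, -0.10, 0.03, 0.20, -0.01 and 0.11. A replicate block called 2705 genes higher and 2839 lower in RNA, with 3 and 3 of the 10, Mtmr2 being added (adjusted p = 0.0315), and 46 peaks of the 10 genes higher and 28 lower. A crossed block, chosen after seeing the data, called 49 higher and 30 lower. In the input fit with the block 0 peaks were called.

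Depth limits Mpzl2 and Fa2h RNA and the smallest peaks. Whether replicates are technical is not stated, and hMeDIP has n = 2 per group once libraries 1 and 3 count as 1.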

Other observations

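Among the genes of the 10 genes' pathways, hMeDIP sums and RNA also parted at single genes. L1cam, an adhesion molecule of Schwann cells, had an RNA change of 1.32 and a sum change of -1.19 on the log2 scale (adjusted p = 3.32e-11), and the dystrophin gene Dmd had 1.27 and -0.85 (adjusted p = 4.22e-20). Both sums stayed lower with all counted reads as library size, at -0.79 and -0.44. Itgb4 and Cadm4 were higher in both, with sums of 0.55 and 0.74. Itga3 RNA fell by 0.66 while its sum rose (0.40). Over the 8 pathway lists without the 10 genes, the sums called higher and lower were 8 and 3 of 13 for synthesis, 3 and 3 of 10 for breakdown, 10 and 7 of 22 for phosphoinositides and traffic and 9 and 2 of 15 for neuropathy. They were 9 and 2 of 12 for the Prx complex, 7 and 2 of 12 for tetraspanins, 6 and 5 of 12 for MARVEL proteins and 5 and 3 of 8 for P0-like proteins, against 37.3% higher and 37.3% lower among all genes.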
